A study of Homo sapiens with 4 samples.

Results

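The genes described here are 10 genes of cytosolic DNA sensing and of the nucleases and related enzymes that limit its substrates: MB21D1 (now named CGAS), TMEM173 (now named STING1), TBK1, IKBKE, IFI16, TREX1, SAMHD1, RNASEH2A, RNASEH2B and RNASEH2C. They were taken by symbol from the 57992 rows of the deposited count table, where each symbol had a row. Polyadenylated RNA was sequenced from 4 libraries of MOLM13, an established human acute myeloid leukaemia line, here as a subline labelled as resistant to the BCL2 inhibitor venetoclax. All 4 libraries came from cells given doxycycline to induce a short hairpin RNA. In 2 libraries this was a control hairpin (shCtrl, genotype WT) and in the other 2 a hairpin against the protein arginine methyltransferase PRMT9 (shPRMT9, PRMT9 knockdown). The labels give a replicate number but do not say whether the libraries are separate cultures, repeats of a culture or different hairpins, so p-values measure only the spread between these libraries. The question of the comparison is which of these RNAs differ when PRMT9 is depleted.

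In the textbook pathway, cGAS binds double-stranded DNA in the cytosol and makes the second messenger cGAMP, which binds STING on the endoplasmic reticulum. STING then moves to the Golgi and recruits the kinase TBK1 and its relative IKK-epsilon (the product of IKBKE), which phosphorylate the transcription factor IRF3. IFI16 is a nuclear and cytosolic DNA-binding protein that can act with STING. On the other side stand enzymes that keep nucleic acids from reaching the sensors: the DNA exonuclease TREX1, the deoxynucleotide hydrolase SAMHD1 and the trimeric RNase H2, which removes ribonucleotides from DNA and RNA from RNA-DNA hybrids. Inherited loss of TREX1, SAMHD1 or any RNase H2 subunit causes Aicardi-Goutieres syndrome, an interferonopathy.

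Total counts ranged from 28592902 to 33845172 per library. PRMT9 itself (chromosome 4, 147637785 to 147684230, minus strand, GRCh38) had 13.2 and 14.3 CPM (counts scaled to the library total times its TMM factor) in the shCtrl libraries and 2.62 and 2.30 in the shPRMT9 libraries, so 17.9% of the control level was left. All 8 markers listed for a myeloid leukaemia line were expressed, with a summed level of 1461 to 1469 CPM in shCtrl and 2166.1 to 2168.5 CPM in shPRMT9. All 8 were called higher after knockdown, where 33.4% of all tested genes rose, so the marker level moved with the hairpin. The smallest of these rises was that of HOXA9 (log2 fold change 0.14, edgeR adjusted p = 0.0117). The part of the marker level in the results was not tested. Of 4 T and NK cell markers NKG7 alone was tested and rose (summed level of the class 14.2 to 15.3 CPM in shCtrl and 26.3 to 27.5 in shPRMT9), while CD3D, CD3E and CD3G had at most 4 counts in a library. Of 4 B cell markers 2 were tested and PAX5 fell (sum 38.9 to 39.4 CPM against 35.0 to 36.1 CPM). The 6 epithelial and stromal markers summed to 0.529 to 0.562 CPM in shCtrl and 1.29 to 1.89 CPM in shPRMT9: PDGFRB rose (6 and 3 counts against 24 and 41), and EPCAM and KRT5 had no count. The erythroid and endothelial markers summed to at most 0.282 CPM in any library, with the globin genes HBB and HBA1 at 0. The part of these markers in the results was not tested either. In bulk RNA, fewer cells of a type and less RNA per cell cannot be told apart.

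After PRMT9 knockdown the RNAs of IFI16, STING, IKBKE and SAMHD1 were higher, while those of all 3 RNase H2 subunits, TBK1 and cGAS were lower. The filter on low counts kept 15193 genes, among them 9 members, and TREX1 could not be tested. The lowest count of any tested member in any library was 526 (IKBKE), so none passed through a single group. Of the 9, 4 rose and 5 fell at a Benjamini-Hochberg adjusted p below 0.05 in edgeR's quasi-likelihood test fitted on all genes. The same rule called 68.0% of all tested genes, 33.4% as rises and 34.5% as falls. The balance moved under another normalization, since upper-quartile factors gave 5933 rises and 4443 falls in place of 5078 and 5249. In all 9 members the shCtrl and shPRMT9 libraries did not overlap in CPM, as in 83.3% of tested genes. A call by itself is therefore common in these data, and the sizes tell the members apart. The median absolute log2 fold change was 0.45 over the 9 members and 0.40 over all tested genes, and the median signed value was -0.16 against 0.00. The signed median of the members is the value of MB21D1, and it was -0.07 with upper-quartile scaling or without shCtrl replicate 1 and -0.23 without shCtrl replicate 2. When the test was made against a fold of 1.5, which 19.0% of tested genes passed, 2 members were called, IFI16 upwards and RNASEH2A downwards. By size of change RNASEH2A exceeded 76.2% of tested genes, TMEM173 67.0%, IKBKE 65.7%, SAMHD1 54.3% and RNASEH2B 52.3%. TBK1 (45.1%), RNASEH2C (32.5%) and MB21D1 (21.1%) changed less than the median tested gene.

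**Figure D1:**
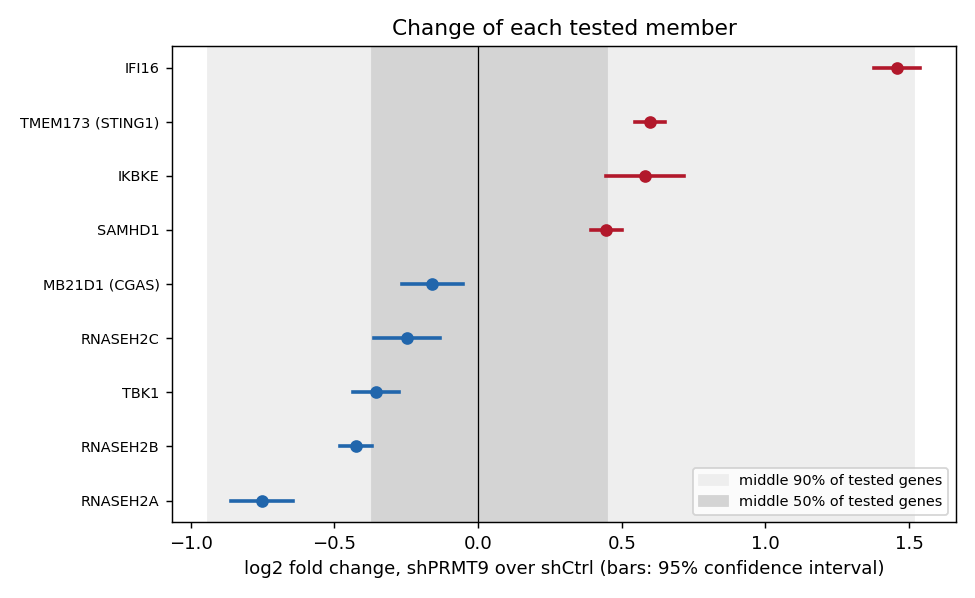
Log2 fold change of the 9 tested members (x axis, shPRMT9 over shCtrl) with 95% confidence intervals, in order of change, with the middle 50% and 90% of all 15193 tested genes shaded. IFI16 lies highest at 1.46 and RNASEH2A lowest at -0.75, and the other members lie between -0.43 and 0.60.

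IFI16 showed the largest change of the group. The gene (ENSG00000163565, chromosome 1, 158999968 to 159055155, plus strand) had 39.3 and 40.8 CPM in the shCtrl libraries and 108.0 and 112 CPM in the shPRMT9 libraries. Both knockdown libraries were far above both controls. The log2 fold change was 1.46 (SE 0.04, 95% confidence interval 1.38 to 1.54, edgeR adjusted p = 4.65e-15), a 2.75-fold rise that was larger in size than that of 93.5% of tested genes.

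The IFI16 promoter window is shown because it was the only one among the members' windows in which any searched motif was found. RefSeq windows of 300 bases (250 before to 50 after a start, GRCh38.p14) matched 8 of the 10 members, with 10 windows, as IFI16 and RNASEH2B have 2 each. MB21D1 and TMEM173 were not matched. The motifs, searched on both strands, were the interferon-response core GAAANNGAA, the STAT site TTCNNNGAA, the E2F sites TTTGGCGC and TTTCCCGC, the NF-kB sites GGGACTTTC and GGAATTTCC and the cyclic AMP element TGACGTCA. Below are the downstream IFI16 window (chr1:159009657-159009956, plus strand), with the match to the interferon-response core in capitals, and for comparison the window of RNASEH2A, the member with the largest fall (chr19:12806334-12806633, plus strand), which held none of these motifs.
IFI16: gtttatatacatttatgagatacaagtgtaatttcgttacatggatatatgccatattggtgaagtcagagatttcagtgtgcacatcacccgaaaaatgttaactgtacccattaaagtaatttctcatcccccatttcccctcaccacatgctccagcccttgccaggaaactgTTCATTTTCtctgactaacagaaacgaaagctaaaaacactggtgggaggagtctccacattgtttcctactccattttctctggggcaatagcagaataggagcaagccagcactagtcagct
RNASEH2A: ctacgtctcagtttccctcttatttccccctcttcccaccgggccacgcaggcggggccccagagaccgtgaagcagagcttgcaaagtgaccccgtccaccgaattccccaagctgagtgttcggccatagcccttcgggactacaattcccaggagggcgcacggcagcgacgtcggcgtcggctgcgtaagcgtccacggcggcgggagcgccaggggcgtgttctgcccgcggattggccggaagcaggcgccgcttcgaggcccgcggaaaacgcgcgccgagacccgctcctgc
The match in IFI16 lies on the minus strand, 74 bases before the start. The core occurs in 8.11% of all 35116 windows in the table, so a match is not rare, and it is a description of the letters only. E2F sites of these forms occur in 2.27% of windows. The share for the STAT site was 7.66%, that for NF-kB 0.849% and that for the cyclic AMP element 1.85%.

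The neighbours of IFI16 in the PYHIN family, a cluster of DNA-binding genes on chromosome 1, did not share a direction. MNDA, a myeloid nuclear member (158831317 to 158849506), had 10.5 and 10.1 CPM in shCtrl and 4.69 and 4.98 CPM in shPRMT9, a log2 fold change of -1.09 (SE 0.11, edgeR adjusted p = 9.08e-08). PYHIN1 was nearly silent in the controls, with 9 and 2 counts, and had 45 and 46 counts after knockdown, a log2 fold change of 2.87 (edgeR adjusted p = 1.56e-05). This value rests on few control counts: it was 4.23 without shCtrl replicate 1 and 2.24 without shCtrl replicate 2, and the call held in both. AIM2, the DNA sensor of the inflammasome, had 5 and 4 counts in shCtrl and 12 and 13 in shPRMT9, and its rise of 1.30 barely passed (adjusted p = 0.0485). The AIM2 call was lost when any of the 4 libraries was left out, at adjusted p from 0.155 to 0.204, in DESeq2 (adjusted p = 0.254), and with the replicate number as a block (adjusted p = 0.0693).

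Of the enzyme and the adaptor at the head of the pathway, STING RNA rose, and the change of cGAS RNA was small and depended on the settings. TMEM173 (STING1, ENSG00000184584, chromosome 5, 139475534 to 139482935, minus strand) had 165 and 166 CPM in the shCtrl libraries and 254 and 247 CPM in the shPRMT9 libraries. The gap between groups was many times the gap within either group. The rise was 1.51-fold (log2 fold change 0.60, SE 0.02, 95% confidence interval 0.55 to 0.65, edgeR adjusted p = 1.48e-12).

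MB21D1 (CGAS, ENSG00000164430, chromosome 6, 73413515 to 73452276, minus strand) had 73.8 and 65.2 CPM in shCtrl and 61.6 and 63.0 CPM in shPRMT9. The groups did not overlap, but the second control lay nearer to the knockdown libraries than to the first control. The log2 fold change was -0.16 (SE 0.05, 95% confidence interval -0.26 to -0.05, edgeR adjusted p = 0.0107), which left 89.6% of the control level. This was the weakest of the members' calls. It was lost without shCtrl replicate 1 (-0.07, adjusted p = 0.194), without shPRMT9 replicate 1 (-0.14, adjusted p = 0.121) and without shPRMT9 replicate 2 (-0.17, adjusted p = 0.0751), and without shCtrl replicate 2 the value was -0.23. Upper-quartile scaling (-0.07, adjusted p = 0.237) and limma on log2(RPKM + 1) (-0.15, adjusted p = 0.0577) also ended the call.

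The 2 kinases of the pathway also parted. TBK1 (ENSG00000183735, chromosome 12, 64451880 to 64502108, plus strand), the main kinase of IRF3, had 67.7 and 68.2 CPM in shCtrl and 52.8 and 53.4 CPM in shPRMT9. Within each group the libraries were nearly equal. This fall, to 78.1% of control, had a log2 fold change of -0.36 (SE 0.04, edgeR adjusted p = 2.21e-07). IKBKE (ENSG00000263528, chromosome 1, 206470476 to 206496889, plus strand), the inducible relative of TBK1, had 20.3 and 18.6 CPM in shCtrl and 30.01 and 28.2 CPM in shPRMT9. It rose by 0.58 on the log2 scale (SE 0.06, edgeR adjusted p = 3.65e-07), or 1.496-fold.

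The RNase H2 subunits all fell, and the estimate was largest in size for RNASEH2A. RNASEH2A, the catalytic subunit (ENSG00000104889, chromosome 19, 12806580 to 12813638, plus strand), had 72.8 and 65.7 CPM in shCtrl and 39.8 and 42.4 CPM in shPRMT9. Both knockdown libraries were well below both controls, and 59.4% of the control level was left (log2 fold change -0.75, SE 0.05, 95% confidence interval -0.86 to -0.64, edgeR adjusted p = 9.72e-10). RNASEH2B, an accessory subunit that carries the PCNA-binding motif (ENSG00000136104, chromosome 13, 50909678 to 50973745, plus strand), had 233 and 226 CPM in shCtrl and 168 and 174 CPM in shPRMT9. Its log2 fold change was -0.43 (SE 0.03, 95% confidence interval -0.48 to -0.37, edgeR adjusted p = 2.64e-10). RNASEH2C, the other accessory subunit (ENSG00000172922, chromosome 11, 65714896 to 65720947, minus strand), had 33.6 and 32.2 CPM in shCtrl and 28.6 and 26.9 CPM in shPRMT9. The groups lay close together, with a log2 fold change of -0.25 (SE 0.05, 95% confidence interval -0.36 to -0.13, edgeR adjusted p = 0.000700).

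The 3 confidence intervals of the subunits did not overlap, although RNASEH2B and RNASEH2C came close. Whether the amounts differ cannot be decided by the permutation test of their ratios given below, as it has too few libraries. In GENCODE release 29, 28.2% of the RNASEH2C exon bases lie under exons of KAT5 on the opposite strand. KAT5 had a log2 fold change of 0.09 (edgeR adjusted p = 0.0797). Whether the counting used strand is not given in the sources used here, so reads of the pair may not be fully told apart. Of 228 protein-coding genes wholly covered on the same strand in that release, 98.7% had 0 counts in all 4 libraries. Of 17 wholly covered on the opposite strand alone, 3 (17.6%) had 0 counts in all 4 libraries. Use of strand in the counting was not tested further. Such opposite-strand overlap also touched 14.7% of TBK1 exon bases and 10.3% of those of SAMHD1, where the partner rows of the table held at most 8 counts in a library. The row of HOOK2 overlaps that of RNASEH2A on the opposite strand in the deposited coordinates, with 215 and 237 counts in shCtrl and 499 and 587 in shPRMT9, opposite in direction to RNASEH2A. In GENCODE release 29 no exon base of RNASEH2A is shared with it. Coordinates of RNASEH2A, RNASEH2B, RNASEH2C and SAMHD1 in that release differ from the deposited ones, with 3645 exon bases for RNASEH2A against 2039. The release has 26291 exon bases for RNASEH2B against 8952, 11261 for SAMHD1 against 5038 and 5101 for RNASEH2C against 3697. The overlaps in the counted gene models of these members may therefore differ. All 12 proliferation genes listed as context fell as well (median log2 fold change -0.93), where 34.5% of all tested genes fell. Among the 12 were the replicative helicase gene MCM3 (-1.26), the thymidylate synthase gene TYMS (-1.22) and the sliding clamp gene PCNA (-1.07). The 12 ranged from -1.26 to -0.54 (CCNB1), a range that holds the value of RNASEH2A, while RNASEH2B and RNASEH2C changed less than any of the 12. The part of proliferation in the subunits' values was not tested. RNASEH1, the monomeric RNase H of nucleus and mitochondria, had 30.6 and 31.2 CPM in shCtrl and 13.6 and 14.8 CPM in shPRMT9, a fall of 1.11 on the log2 scale (SE 0.06, edgeR adjusted p = 9.41e-11).

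SAMHD1, which hydrolyses deoxynucleotides and so limits reverse transcription and DNA synthesis, had the highest RPKM of the members by the deposited exon lengths. The gene (ENSG00000101347, chromosome 20, 36890229 to 36951843, minus strand) had 281 and 266 CPM in shCtrl and 375 and 370.1 CPM in shPRMT9. The libraries separated by group. The rise was 1.36-fold (log2 fold change 0.45, SE 0.03, edgeR adjusted p = 8.19e-11).

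TREX1, the main cytosolic DNA exonuclease, was listed at 0 counts and 0 RPKM in all 4 libraries. The gene (ENSG00000213689, chromosome 3, 48465811 to 48467645, plus strand) lies within a row named ATRIP on the same strand (ENSG00000282827, 48446710 to 48467645), which had 9, 11, 3 and 6 counts. In GENCODE release 29, ATRIP exons cover 100% of the TREX1 exon bases. Among 228 protein-coding genes of the table whose exons are wholly covered in that release by other genes on the same strand, 225 (98.7%) were listed at 0 in all 4 libraries, against 24.0% of 11294 protein-coding genes with no such cover on either strand. The 0 therefore gives no level for TREX1. Its paralog TREX2 had 18 and 12 counts in shCtrl and 13 and 12 in shPRMT9, and its change was not called (log2 fold change -0.41, SE 0.43, edgeR adjusted p = 0.413).

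Levels were compared between genes only per length, in the authors' RPKM. In shCtrl the order was SAMHD1 (54.3 ± 1.15, SD, n = 2), TMEM173 (43.0 ± 0.980), RNASEH2A (33.9 ± 1.87), RNASEH2B (25.7 ± 0.0928), MB21D1 (16.7 ± 1.18), TBK1 (14.3 ± 0.323), RNASEH2C (8.90 ± 0.124), IFI16 (7.56 ± 0.322) and IKBKE (5.12 ± 0.231). The libraries of neighbours in this order did not overlap. In shPRMT9 SAMHD1 (73.8 ± 0.593) and TMEM173 (64.9 ± 1.1002) still led. IFI16 came next at 20.7 ± 0.522, with libraries that overlapped those of RNASEH2A (20.1 ± 0.958). RNASEH2B (19.1 ± 0.463), MB21D1 (14.98 ± 0.262) and TBK1 (11.1 ± 0.0975) followed, and IKBKE (7.67 ± 0.321) overlapped RNASEH2C (7.49 ± 0.317). By these lengths IFI16 moved from rank 8 to rank 3.

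**Figure D2:**
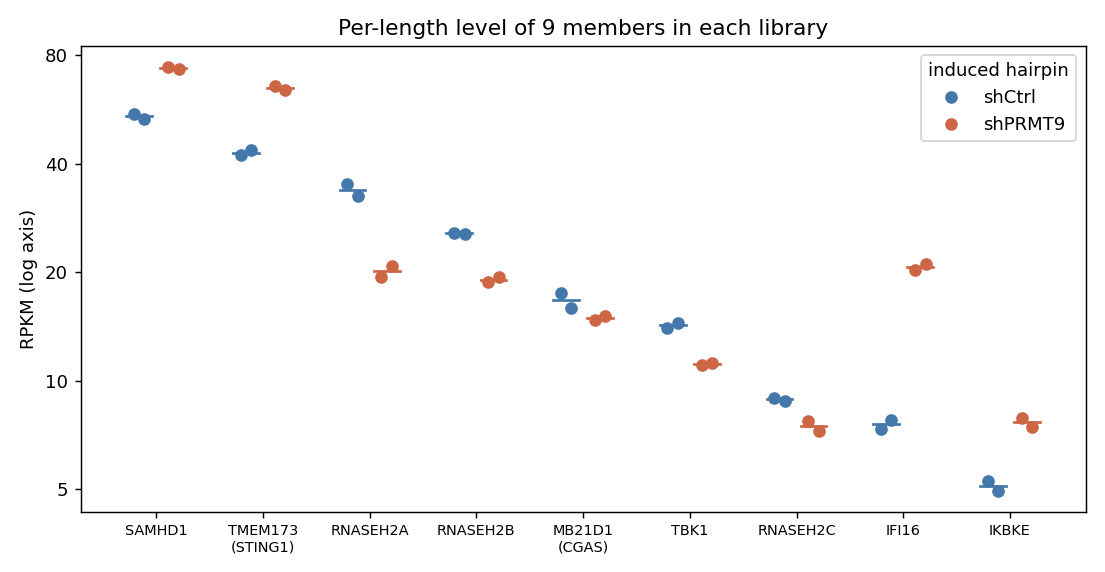
RPKM (log axis) of the 9 members with counts in each of the 4 libraries, 2 points per group with the mean as a line, in the order of the control level. The shPRMT9 points of SAMHD1, TMEM173, IFI16 and IKBKE lie above the shCtrl points, those of the other 5 members below, and the MB21D1 points lie closest together.

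Ratios within a library do not depend on its scaling, but their size depends on the exon lengths. The RPKM ratio of TMEM173 to MB21D1 was 2.41 and 2.75 in the shCtrl libraries and 4.44 and 4.23 in the shPRMT9 libraries. That of TBK1 to IKBKE was 2.66 and 2.93 in shCtrl and 1.40 and 1.51 in shPRMT9, so TBK1 still exceeded IKBKE in every library. The ratio of IFI16 to MB21D1 crossed 1, from 0.418 and 0.491 to 1.38 and 1.39. Among the RNase H2 subunits, RNASEH2A to RNASEH2B was 1.37 and 1.27 in shCtrl and 1.04 and 1.07 in shPRMT9, and RNASEH2A to RNASEH2C was 3.92 and 3.70 against 2.52 and 2.86. RNASEH2B to RNASEH2C was 2.86 and 2.90 in shCtrl and 2.43 and 2.67 in shPRMT9. The last of the 7 ratios computed, IFI16 to TMEM173, was 0.174 and 0.179 against 0.310 and 0.329. The groups did not overlap in any of them, but 83.3% of single genes do not overlap either, so this is no result about these pairs. With 2 libraries against 2, an exact two-sided permutation test cannot go below p = 0.333, which each ratio gave, also after adjustment over the 7.

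**Figure D3:**
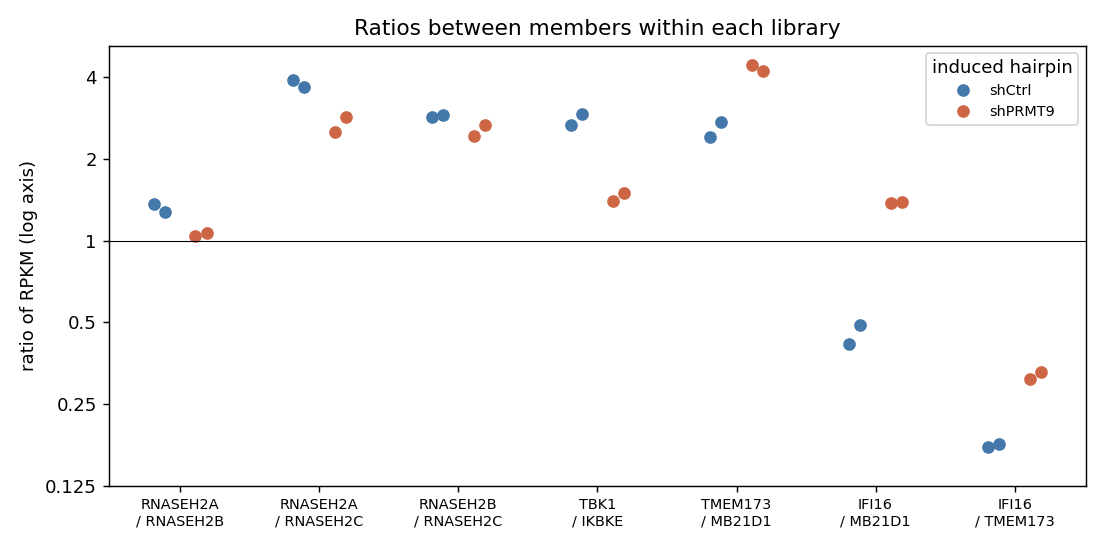
Ratio of the RPKM of 2 members (log axis) in each of the 4 libraries for the 7 pairs computed. Only IFI16 over MB21D1 lies on different sides of 1 in the 2 groups, at 0.418 and 0.491 in shCtrl and 1.38 and 1.39 in shPRMT9.

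Genes around the members were read from lists of known partners. Over all tested genes 33.4% rose and 34.5% fell, and no list was tested as a set. Of 24 tested genes that carry or break down cGAMP or regulate cGAS or STING, 10 rose and 9 fell (median 0.01 on the log2 scale). Neither the balance nor the sign of the median was stable: without shPRMT9 replicate 1 the median was -0.03, and without shCtrl replicate 1 there were 9 rises and 10 falls. The largest rises were in SENP7 (0.61), a SUMO protease, NLRX1 (0.51), a mitochondrial regulator of STING signalling, and TRIM56 (0.48), a ubiquitin ligase of cGAS and STING. The largest falls were in G3BP1 (-0.63), which primes cGAS for DNA, BANF1 (-0.58), which keeps cGAS off nuclear DNA, and the folate and cGAMP carrier gene SLC19A1 (-0.53). The cGAMP hydrolase gene ENPP1 had between 0 and 3 counts per library and was not tested.

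Of 20 genes listed as adaptors, targets and downstream factors of TBK1 and IKK-epsilon, all were tested, 12 rose and 6 fell (median 0.17). The list also holds the sister IKK genes CHUK, IKBKB and IKBKG and the adaptor genes MAVS and TICAM1, so it is not a list of TBK1 outputs. Over all tested genes the shares were 33.4% and 34.5%. IRF7, the interferon-inducible relative of IRF3, rose most, from 9.82 and 9.53 CPM to 35.7 and 36.4 CPM (log2 fold change 1.90, SE 0.07, edgeR adjusted p = 1.37e-13). IRF3, the direct target of TBK1, had 43.6 and 46.0 CPM in shCtrl and 47.6 and 49.1 CPM in shPRMT9. Its rise of 0.11 was small (edgeR adjusted p = 0.0352), and it was lost without shCtrl replicate 1 (0.07, adjusted p = 0.316), without shPRMT9 replicate 1 (0.13, adjusted p = 0.0510), without shPRMT9 replicate 2 (0.09, adjusted p = 0.189) and in DESeq2 (adjusted p = 0.207). The autophagy receptor genes OPTN (1.31) and SQSTM1 (1.07), whose products TBK1 phosphorylates, also rose. CHUK, which encodes IKK-alpha, fell from 81.4 and 81.4 CPM to 31.3 and 31.7 CPM (-1.37, SE 0.04, edgeR adjusted p = 1.89e-14). The next falls in size in this list were in IKBKG (-0.48, edgeR adjusted p = 0.0405), which encodes NEMO, and in the helicase gene DDX3X (-0.46). In size they exceeded 56.9% and 55.7% of tested genes. For IKBKG the call was lost in DESeq2 (adjusted p = 0.134), limma-voom (adjusted p = 0.0675) and edgeR with upper-quartile scaling (adjusted p = 0.0863). The IKBKG control libraries differed, at 3.67 and 5.75 CPM, and the value was -0.78 without shCtrl replicate 1. The call was lost without shCtrl replicate 2 (-0.11, adjusted p = 0.618), without shPRMT9 replicate 1 (-0.58, adjusted p = 0.0948) and without shPRMT9 replicate 2 (-0.37, adjusted p = 0.277).

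Among 14 tested genes of other DNA sensors and the PYHIN family, 5 rose and 9 fell (median -0.32). The rises were near the 33.4% share of all tested genes, of which 34.5% fell. After PYHIN1 and AIM2 the next rise in size was in LRRFIP1 (0.41), and beside MNDA the falls were led by POLR3B (-0.86), a subunit of the RNA polymerase that transcribes AT-rich DNA in the cytosol, and PRKDC (-0.69), the DNA-dependent protein kinase. ZBP1 and TLR9 had too few counts to be tested.

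Other nucleases moved in both directions. Of 28 tested nucleases and further Aicardi-Goutieres genes 8 rose and 15 fell (median -0.26). The rises were near the 33.4% share of all tested genes, of which 34.5% fell. The nucleases of replication and repair EXO1 (-1.54), RBBP8 (-1.25) and FEN1 (-1.14) fell most. The largest rise was in IFIH1 (2.02), which encodes the RNA sensor MDA5, followed by the lysosomal ribonuclease gene RNASET2 (1.42) and the endolysosomal exonuclease gene PLD4 (0.72).

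Known outputs of the pathway were higher where they could be tested. Of 19 genes listed as outputs 13 were tested, and all 13 rose (median 1.38 on the log2 scale), where 33.4% of all tested genes rose. The list was chosen with earlier results of these data known, so the 13 rises are not an independent result. The smallest rise was that of the cytokine gene TNF (0.13, edgeR adjusted p = 0.0450). Across the alternatives 10 to 13 outputs were called, all as rises, with 11 in DESeq2 and 10 against a fold of 1.5. CXCL10, a chemokine gene, went from 1.03 and 0.811 CPM to 13.9 and 14.3 CPM (3.93, SE 0.15, edgeR adjusted p = 4.41e-13), and IFIT1 rose by 3.78. CCL4 had no count in shCtrl and 24 and 30 counts in shPRMT9, at least 16.3-fold higher against a floor of 3 counts over the control group. With CCL4 at that bound the median stayed 1.38. IFNB1, the interferon gene that STING signalling is best known to induce, had 2 and 0 counts in shCtrl and 0 and 1 in shPRMT9, and IFNA1, IFNL1, IFNL2, IFNL3 and IL6 had none in any library. At this depth no interferon-beta transcript was detectable above that level in either group. These outputs are not specific to STING, since RNA sensors and interferon receptors also induce most of them, and which route applied was not tested.

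**Figure D4:**
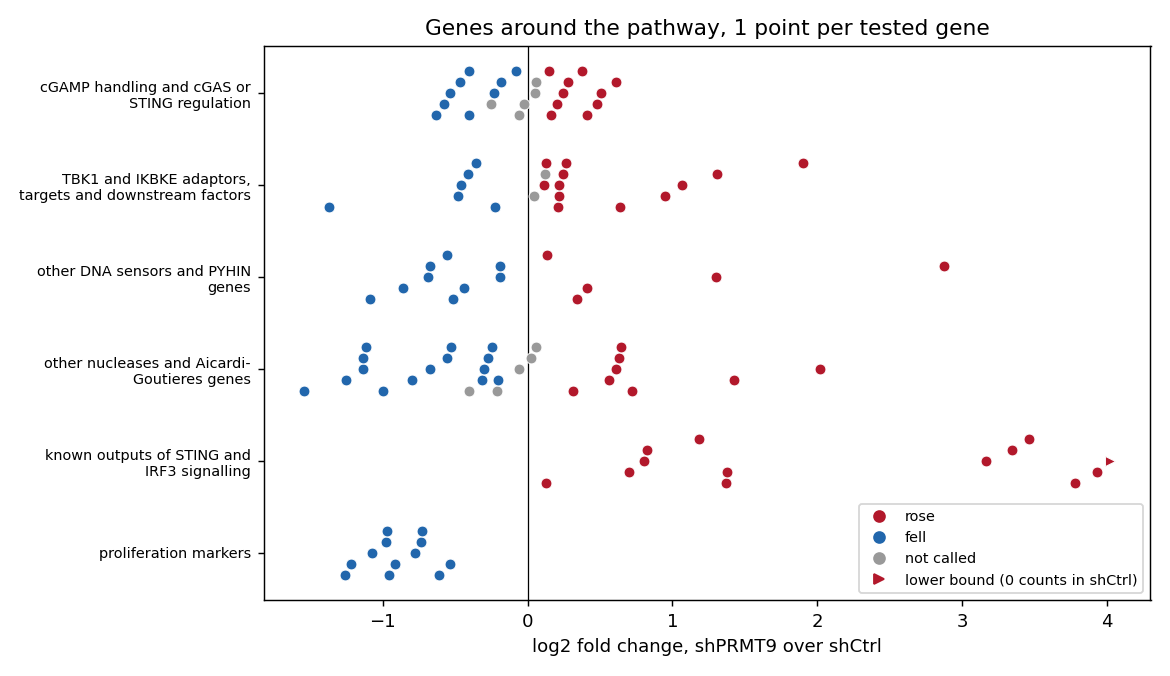
Log2 fold change (x axis, shPRMT9 over shCtrl) of each tested gene in 6 lists around the pathway, coloured by call, with CCL4 drawn as a triangle at its lower bound. All 13 tested outputs lie right of 0 and all 12 proliferation markers left of it, while the lists of regulators, adaptors, sensors and nucleases hold genes on both sides.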

How the data were processed

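RNA was measured in 4 libraries, 2 per group. The authors deposited a table of raw counts and a table of RPKM, both by Ensembl gene on GRCh38. The submitters' processing notes list Trimmomatic 0.39, STAR 2.7.2a and SAMtools 1.10. For the counting program, its strand setting, its treatment of shared reads and its annotation, the sources used here give nothing. The deposited RPKM matched counts per exon length and library total with 1 TMM factor per library, so comparisons between genes depend on the authors' exon lengths.

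Counts were fitted with edgeR 4.0.16 in R 4.3.3 (filterByExpr with minimum count 10, TMM, robust quasi-likelihood test) on the whole table, with Benjamini-Hochberg adjustment over 15193 genes, which hold 99.9% of counts. Log2 fold changes are shPRMT9 over shCtrl, and standard errors come from the F statistic. The code was tested on simulated data. Libraries of a group differed by more than counting noise (chi-square per degree of freedom 2.91 in shCtrl and 1.60 in shPRMT9). Alternatives covered scaling, low-count filters, DESeq2 1.42.0, limma 3.58.1 (voom, and log2 RPKM with a pseudocount of 1 or 0.1), a test against a fold of 1.5, a threshold of 0.01, the replicate block and each library left out. Exon overlap came from GENCODE release 29, which has the identifiers of 57388 rows. The members and lists were chosen with earlier results of these data known. Named genes are PRMT9, the members, their paralogs, neighbours and direct targets, and per list up to 3 called genes with the largest rise and up to 3 with the largest fall.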

Additional observations from a re-analysis of the deposited data

How the results depend on the processing

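No log2 fold change of a gene named by the rule above changed sign under the alternatives run. The median of the cGAMP, cGAS and STING regulators did (0.01, and -0.03 without shPRMT9 replicate 1). The test against a fold of 1.5 made the largest difference: it called 2 members (1 rise and 1 fall), 1 gene of the cGAMP, cGAS and STING regulators, 5 of the TBK1 and IKBKE adaptors and targets, 5 of the other DNA sensors, 10 of the other nucleases and 10 of the known outputs, and 2884 genes in all against 10327. In log2(RPKM + 1) without a filter on low values, 11 of the TBK1 and IKBKE list were called. Apart from these, among the members the call of MB21D1 alone was lost under other settings. Among the other genes named by that rule the calls of IKBKG, AIM2 and IRF3 were lost. The output TNF (edgeR adjusted p = 0.0450) and the markers PAX5 (0.0111) and HOXA9 (0.0117) fall outside the rule, and each missed the threshold of 0.01. Leaving out each library in turn gave 8 to 9 members called. Libraries of equal replicate number showed no shared deviation (correlation of deviations -0.0307), which cannot tell whether they shared a culture. With the replicate number as a block 9 members were called, and of the genes named by that rule AIM2 lost its call (adjusted p = 0.0693). With 2 libraries a group, low-count genes such as AIM2, PYHIN1 and TREX2 are the least precise.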
